A study of Mus musculus with 2 samples.

Results

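Malat1, Neat1, Miat, Snhg11, Sox2ot, Rmst, Dlx6os1 and Pantr1 are long RNAs that are described as noncoding and are known from the nuclei of neurons and other brain cells. These 8 genes, of 55536 annotated genes in the tables, were taken by their symbols, which gave 9 gene identifiers and 67 transcripts. They were selected by name on measured values, with their levels and their ratios between these libraries already known, so levels and ratios are a description and carry no test. The ninth identifier is a second Dlx6os1 entry of 146 bases (miscellaneous RNA) that held 0 counts in replicate 1 and 1 count in replicate 2. It was left aside, which leaves 66 transcripts in the sections on isoforms.

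The left cerebral cortex of 2 mice, both female, of strain B6CASTF1/J and 36 days old, gave the total RNA. The strain is an F1 hybrid with a C57BL/6J and a CAST/EiJ parent. Both libraries, 1 per mouse and each from 300 ng of RNA with synthetic spike-ins, form 1 group, so there is no treatment, second age or second tissue. The labels give a separate animal for each library, and no p-value was computed. The spread between the libraries can hold differences between mice as well as in dissection and RNA handling, which cannot be told apart here.

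Malat1 and Neat1 lie side by side in the genome and work in different nuclear bodies. Malat1 gathers in nuclear speckles, which hold splicing factors, and the long form of Neat1 is the scaffold on which paraspeckles form. Both RNAs are cut by RNase P in place of ordinary polyadenylation, which leaves a 3′ end held in a triple helix and releases a small tRNA-like RNA. Miat, also called Gomafu, carries repeats close to the intron branch point and binds splicing factors. Snhg11 is a spliced host of small nucleolar RNAs made in neurons. Sox2ot spans the Sox2 gene, and Rmst binds the Sox2 protein. Dlx6os1, also called Evf2, acts on the Dlx5 and Dlx6 genes in the interneuron lineage, and Pantr1 is transcribed away from Pou3f3, the gene of Brn1.

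The 3′ processing region is shown first because Malat1 and Neat1 share it and had the largest differences between the mice. The lines give 110 bases up to the cleavage site of each RNA, on the minus strand of chromosome 19, from GENCODE M21 transcripts on mm10. The Malat1 stretch is chr19:5795982-5796091 and the Neat1-201 stretch is chr19:5824708-5824817. The Malat1 site was placed at the GCAAAA whose preceding bases share most with the end of Neat1-201. Capitals mark runs of 9 or more bases found in both.

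Malat1 before cleavage: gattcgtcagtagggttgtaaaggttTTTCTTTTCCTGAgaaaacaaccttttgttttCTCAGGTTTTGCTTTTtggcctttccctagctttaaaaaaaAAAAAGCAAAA
Neat1-201 end: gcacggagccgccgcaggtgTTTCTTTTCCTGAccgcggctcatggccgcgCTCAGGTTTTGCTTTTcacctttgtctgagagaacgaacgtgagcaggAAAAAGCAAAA

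The shared runs cover 40 of the 110 bases in each RNA and appear in the same order. They are the 2 U-rich stretches and the A-rich end that form the triple helix. The motif AAAGCAAAA, taken from the shared A-rich run, occurred once in Malat1-201 (6983 bases) and once in Neat1-201 (20771 bases). On the other strand it had 1 and 2 matches. In each RNA such a match lies in the U-rich stretch nearer the A-rich end, so it is part of the same element. Among all annotated transcripts of at least 110 bases, 0.305% held the motif in their last 110 bases. Neat1-201 is among them, while Malat1-201 is not, because it runs on for 292 bases.

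The bases that follow the cleavage site are the tRNA-like parts. For Malat1 they are chr19:5795922-5795981 within Malat1-201, and for Neat1 they are the annotated gene Gm27702, chr19:5824652-5824707, which starts with 0 bases between it and the end of Neat1-201. Capitals mark shared runs of 7 or more bases.

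Malat1 after cleavage: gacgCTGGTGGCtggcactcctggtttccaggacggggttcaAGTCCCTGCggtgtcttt
Gm27702: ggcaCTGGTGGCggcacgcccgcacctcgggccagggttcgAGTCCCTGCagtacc

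Gm27702 is 56 bases long and held 0 expected counts in both libraries, and it also held 0 estimated counts in the second transcript tables. The first tables give so short a model an effective length of 0, so its count of 0 says nothing of its level. The annotated Malat1-201 runs on for 292 bases after the cleavage site.

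The short form of Neat1 and the full annotated form of Malat1 end differently. Their last 60 bases, chr19:5842307-5842366 and chr19:5795690-5795749 on the minus strand, each hold the polyadenylation signal AATAAA, in capitals. That signal stood in the last 60 bases of 27.2% of all annotated transcripts of that length or more.

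Neat1-202: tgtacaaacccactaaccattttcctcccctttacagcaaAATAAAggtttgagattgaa
Malat1-201: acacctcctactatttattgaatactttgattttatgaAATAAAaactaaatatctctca

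Miat is shown for its repeats, a sequence feature of the RNA that did not enter the choice of genes. The 160 bases chr5:112217300-112217459 on the minus strand lie in the last exon of Miat-201 and hold 4 copies of ACTAAC, in capitals.

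Miat-201: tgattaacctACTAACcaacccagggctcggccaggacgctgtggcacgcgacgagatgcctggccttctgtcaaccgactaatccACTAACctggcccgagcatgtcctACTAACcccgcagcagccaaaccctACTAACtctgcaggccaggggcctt

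Over its 8758 bases Miat-201 held ACTAAC 11 times on its own strand and 0 times on the other. Among 914 annotated transcripts of 90 to 110 percent of its length, 3 (0.328%) held it at least 11 times, and the median of the 914 was 1 copy. The 914 include Miat-201 itself and Miat-205, which has 95.1% of its bases in the exons of Miat-201. This share is therefore not independent of Miat. The longer form TACTAAC, each copy of which also counts as an ACTAAC, occurred 6 times in Miat-201. Neat1-201 held 4 copies of ACTAAC on each strand, Snhg11-201 held 1, and the leading transcripts of the other 5 RNAs held 0 on their own strand.

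Malat1 stood far above the other RNAs in both mice. In TPM, each transcript's share of the total once length is taken into account, it stood at 5827 in replicate 1 and 2725 in replicate 2, a mean of 4276 ± 2194 (SD, n = 2). It rested on 368848 and 218703 expected counts (reads that the authors' quantifier divided among genes), which were 1.25% and 0.622% of all counts. Malat1 ranked 13 in mean TPM among all annotated genes and 3 among the annotated long noncoding types. Above it in the latter stood Gm26917 and Gm42418, adjacent models on chromosome 17. Which RNA their reads come from was not examined. It lies at chr19:5795690-5802672 on the minus strand (ENSMUSG00000092341.3).

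Neat1, its neighbour, was far lower on the same scale. It stood at 18.25 TPM in replicate 1 and at 7.92 TPM in replicate 2 (13.1 ± 7.30, SD, n = 2), from 1793 and 995 expected counts. The level of Malat1 over that of Neat1 was 319 in replicate 1 and 344 in replicate 2. The second transcript tables of the authors, which hold estimated counts in place of expected counts, put this ratio at 146 and 160. Neat1 lies at chr19:5824708-5845478 on the minus strand (ENSMUSG00000092274.3), 22035 bases beyond Malat1.

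Snhg11 was the second most abundant of the 8. It stood at 323 TPM in replicate 1 and 157 TPM in replicate 2 (240 ± 117, SD, n = 2), from 29590 and 19707 counts. The annotation lists it as protein-coding, at chr2:158375638-158386145 on the plus strand (ENSMUSG00000044349.15). Of the small nucleolar RNA genes that overlap it on its strand, Gm25129 held 21 and 22 counts and Gm25187 held 0 in both mice. In the second tables Gm25129 was listed at 0 in both mice.

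Miat stood at 111 TPM in replicate 1 and 54.2 TPM in replicate 2 (82.7 ± 40.3, SD, n = 2), from 12764 and 8707 counts, at chr5:112213228-112229395 on the minus strand (ENSMUSG00000097767.8). Pantr1 stood at 65.9 TPM and 53.2 TPM (59.5 ± 8.97), from 602 and 635 counts, at chr1:42590782-42694842 on the minus strand (ENSMUSG00000060424.14). The ranges of the 2 mice overlapped for Miat and Pantr1, so their order was not resolved, and it was not the same in the second tables. Pantr1 is quantified over short transcripts, so a similar TPM came from far fewer reads than for Miat.

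The other RNAs were lower. Rmst stood at 20.25 TPM in replicate 1 and 13.1 TPM in replicate 2 (16.7 ± 5.05), from 331 and 308 counts, at chr10:92071037-92165170 on the minus strand (ENSMUSG00000112117.1). Sox2ot stood at 13.8 TPM and 8.75 TPM (11.3 ± 3.54), from 467 and 395 counts, at chr3:34104270-34682619 on the plus strand (ENSMUSG00000105265.4). Dlx6os1 stood at 8.29 TPM and 6.44 TPM (7.37 ± 1.31), from 458 and 442 counts, at chr6:6820189-6871592 on the minus strand (ENSMUSG00000090063.6). Ranges overlapped between Rmst and Neat1 and between Neat1 and Sox2ot, while Dlx6os1 lay below Sox2ot in both mice.

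**Figure D1:**
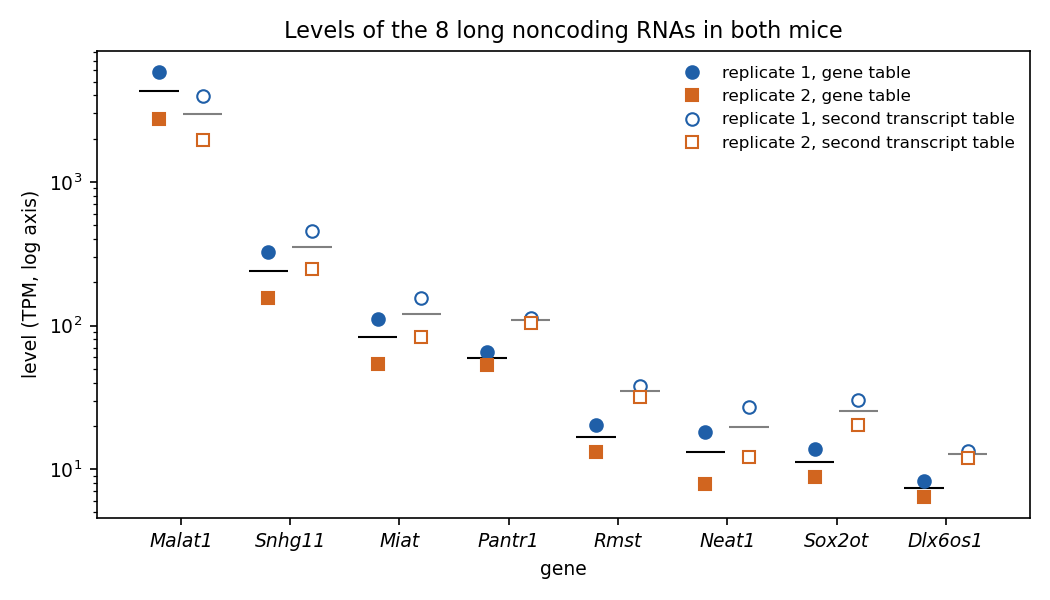
Level in TPM (log axis) of each RNA, with circles for replicate 1 and squares for replicate 2; filled symbols are the gene tables, open symbols the second transcript tables and short lines the means of the 2 mice. Malat1 lies at 1948 TPM or more in every library and table, the others reach at most 453 TPM, and replicate 2 lies below replicate 1 for each RNA in both tables.

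The 8 RNAs were all lower in replicate 2 after scaling, by amounts that ran from 2.06-fold to 1.08-fold. Counts were scaled by TMM library sizes (trimmed mean of M-values), and ratios are log2 of replicate 2 over replicate 1 with a 95% exact Clopper-Pearson interval for counting error only. The median of the 8 was -0.59, beside 0.042 for the 12615 genes averaging 100 counts or more over both libraries. All 8 lay below 0, as did 41.1% of those genes and 67.2% of the 299 of annotated long noncoding types among them. The RNAs were chosen with this direction known, so nothing is drawn from that count.

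Neat1 was 2.06-fold lower in replicate 2, at a log2 ratio of -1.04 (interval -1.16 to -0.93). It was the only one of the 8 past 2-fold, where 0.436% of all genes averaging 100 counts or more were at least 2-fold lower. Malat1 was 1.93-fold lower at -0.95 (-0.95 to -0.94), with a narrow interval because of its many reads. The interval of Malat1 lies inside that of Neat1, so a difference between the ratios of this neighbouring pair was not resolved.

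Snhg11 was 1.72-fold lower at -0.78 (-0.81 to -0.75) and Miat was 1.68-fold lower at -0.74 (-0.78 to -0.70). With Neat1 and Malat1 they make 4 of 8 past 1.5-fold, a size chosen after the data were seen, beside 1.93% of all genes. Among the 299 genes of annotated long noncoding types at the same minimum, 15.1% were at least 1.5-fold lower, and among the 124 lincRNA genes 17.7%. In the second transcript tables the same count was 4 of 8, beside 3.84% of the 13007 genes that reached a mean count of 100 there. These 4 RNAs ranked 47 (Neat1), 70 (Malat1), 131 (Snhg11) and 141 (Miat) from the lowest of 12615 ratios.

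The RNAs tied to developmental transcription factors were closer between the mice. Sox2ot had a log2 ratio of -0.43 (-0.63 to -0.24), Rmst -0.29 (-0.53 to -0.07) and Dlx6os1 -0.24 (-0.44 to -0.05). Pantr1, at -0.12 (-0.28 to 0.05), had an interval that reached 0. These 4 rested on 308 to 635 counts per library, so their intervals are wide and overlap between neighbours in this order.

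**Figure D2:**
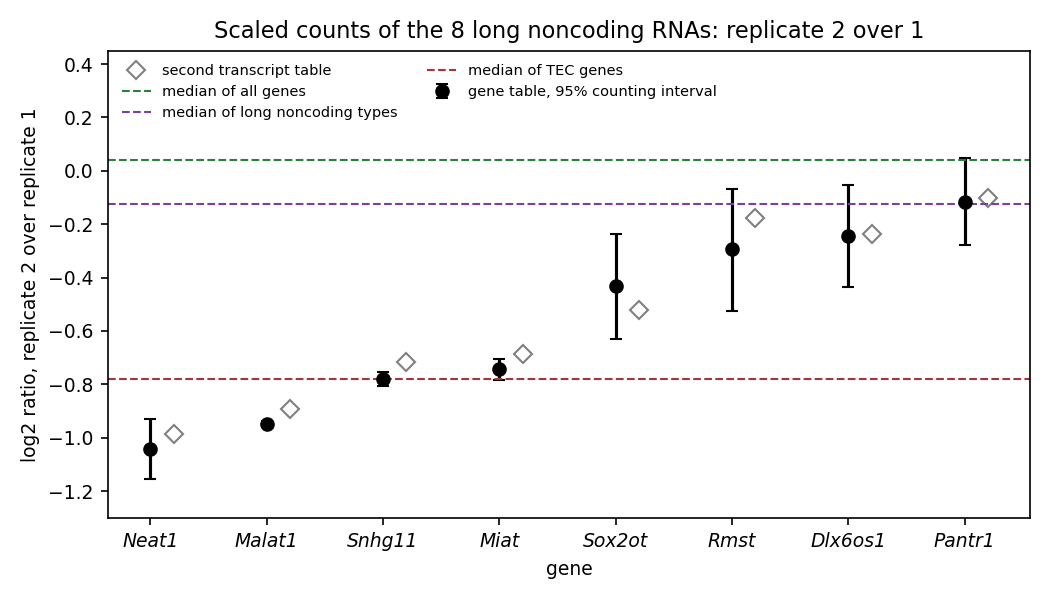
Log2 ratio of scaled counts, replicate 2 over replicate 1, of each RNA, with filled points and 95% counting intervals from the gene tables and open diamonds from the second transcript tables. Dashed lines are medians of all annotated genes (0.042), of long noncoding types (-0.13) and of TEC genes (-0.78); the filled points of Neat1, Malat1, Snhg11 and Miat lie between -1.04 and -0.74, and those of the others above -0.44.

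All scalings kept the 8 RNAs below 0. Scaling by the spike-ins moved the median of all genes by -0.46, and the ratios of the members then ran from -1.51 for Neat1 to -0.58 for Pantr1. The ratio of deposited TPM moved the median of all genes by -0.25 and ran from -1.19 to -0.31. Under each scaling the 8 RNAs also lay below the median of all genes under that scaling. DESeq2, total-count and spike-in scaling shift all genes by nearly the same amount. They could therefore not change this position, and nothing is drawn from it.

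**Figure D3:**
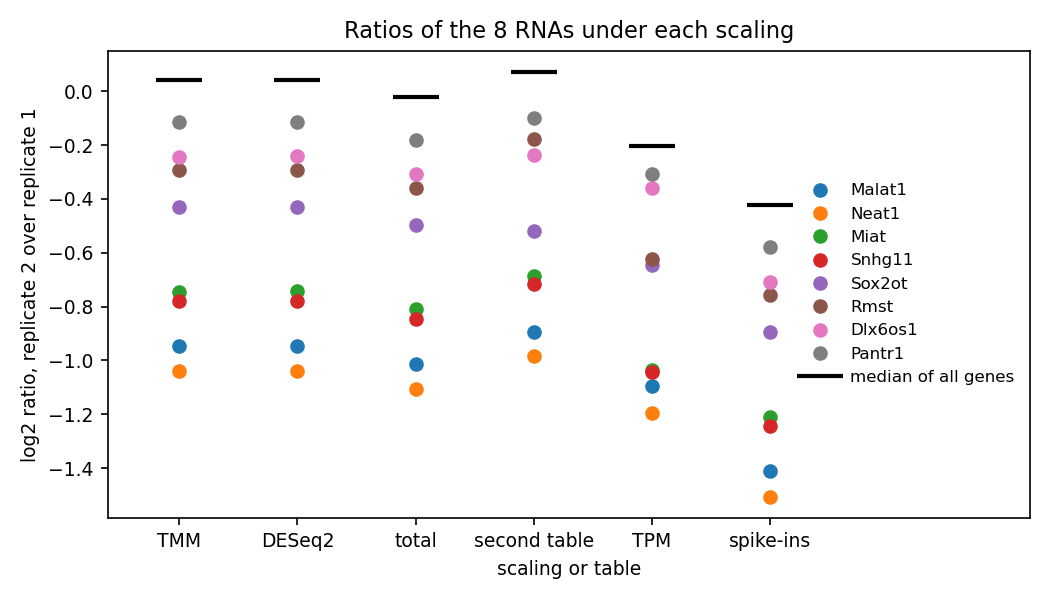
Log2 ratio, replicate 2 over replicate 1, of each RNA (coloured points) and the median of all genes averaging 100 counts or more (black bars) under 4 scalings, the second transcript tables and deposited TPM. The whole set shifts downward with spike-in scaling, where the median of all genes is -0.42, and all 8 RNAs stay below the black bar in each column. A change of library size alone could not alter this position.

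Other classes of RNA moved in the same or the opposite direction. The 299 genes of annotated long noncoding types averaging 100 counts or more had a median log2 ratio of -0.13 (quartiles -0.40 and 0.068). The 155 TEC genes, mostly single-exon models that still await experimental test, had -0.78, and the 16 sense intronic genes had -0.75. At least 1.5-fold lower were 69.7% of these TEC genes and 62.5% of these sense intronic genes. Among transcripts averaging 100 counts or more, the 1895 annotated as retained introns had a median of -0.44, against 0.072 for the 17301 protein-coding ones. The 21 small nuclear RNA genes had 0.86 and the 21 small nucleolar RNA genes 0.57. TEC genes took 0.298% of counts in replicate 1 and 0.178% in replicate 2. The part of these classes in the lower levels of the 8 RNAs was not tested.

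Marker lists of neurons, excitatory neurons, interneurons, microglia and endothelium had median log2 ratios from 0.025 to 0.097, astrocytes 0.16, oligodendrocytes -0.12 and their precursors -0.04 (2 of 3 lower). All 5 red blood cell markers were lower in replicate 2, with a median of -0.66 and a summed level of 866 TPM against 457 TPM. All 3 choroid plexus markers averaging 10 counts or more were lower, with a median of -1.07 and a sum over the 4 listed of 5.63 TPM against 2.62 TPM. Of the olfactory bulb markers 3 of 3 above that minimum were higher, at a median of 0.97 with sums of 14.2 and 14.4 TPM. Among markers averaging 100 counts or more the median was -0.40 for choroid plexus and 0.53 for olfactory bulb. All 4 striatum markers were higher, at a median of 0.28 with sums of 37.3 and 35.8 TPM. All 4 thalamus markers were lower, at a median of -0.14 with sums of 53.3 and 37.7 TPM. No marker of these 5 lists was at 0, and their part in the ratios of the 8 RNAs was not tested. Over all genes averaging 10 counts or more, 46.4% were lower. In bulk tissue, fewer cells of a type and less of an RNA per cell cannot be told apart.

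The forms of Neat1 kept the same proportion in both mice. The short Neat1-202 (3004 bases, 2 exons) stood at 15.5 TPM in replicate 1 and 6.45 TPM in replicate 2, from 842 and 474 counts. The long Neat1-201, the paraspeckle scaffold (1 exon), stood at 2.45 TPM and 0.98 TPM, from 946 and 511 counts. Short over long was 6.32 in replicate 1 and 6.58 in replicate 2, and 5.79 and 5.89 in the second tables. The log2 ratios between the mice were -1.02 (-1.19 to -0.86) for the short form and -1.08 (-1.24 to -0.92) for the long form, with intervals that overlap. Both forms start at nearly the same base and reads from the shared stretch are divided by the quantifier, so the proportion is an estimate.

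Malat1 gave different isoform shares in the 2 kinds of table. The annotation holds 1 unspliced transcript, Malat1-201, and 3 spliced ones, Malat1-202, Malat1-203 and Malat1-204, of 556, 485 and 656 bases. All bases of the spliced transcripts lie inside the exon of Malat1-201, so they differ from it only at the splice junction, which is why the junctions are shown. Each line gives 20 bases before the junction and, in capitals, 20 bases after it.

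Malat1-202: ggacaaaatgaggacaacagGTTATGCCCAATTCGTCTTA
Malat1-203: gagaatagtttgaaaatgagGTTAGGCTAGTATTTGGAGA
Malat1-204: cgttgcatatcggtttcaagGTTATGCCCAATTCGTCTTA
Neat1-202: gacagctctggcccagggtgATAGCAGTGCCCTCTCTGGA

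The introns removed are chr19:5795786-5797003 (1218 bases) for Malat1-202, chr19:5801967-5802237 (271 bases) for Malat1-203 and chr19:5795786-5796388 (603 bases) for Malat1-204. The intron of Neat1-202, chr19:5844759-5844924, has 166 bases. Each of these introns starts with GT and ends with AG on the minus strand. Malat1-202 and Malat1-204 join to the same 3′ exon, so both share the bases after the junction, and their introns take out the cleavage region shown above.

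In the first transcript table the 3 spliced Malat1 transcripts took 54.7% of the TPM of the gene in replicate 1 and 58.1% in replicate 2. In expected counts, which are not divided by length, they took 7.90% and 9.11%. In the second tables they took 0.165% and 0.357% of TPM, from 22.5 and 36.0 estimated counts. Malat1-201 accordingly took 43.6% ± 2.40 of TPM in the first table and 99.7% in the second. The gene-level TPM of Malat1 depends on this division, and was 3963 and 1948 TPM in the second tables. The cause of the difference between the tables was not tested.

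The log2 ratio of Malat1-201 alone was -0.97 (-0.97 to -0.96) and those of the spliced models ran from -1.14 for Malat1-203 to -0.58 for Malat1-204. The lower level in replicate 2 therefore held for Malat1-201 in expected counts without the spliced models.

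Snhg11 and Miat each had a leading transcript that both tables named. Snhg11-201 (5864 bases, 5 exons) took 81.4% ± 0.93 of TPM (SD, n = 2), and 89.3% in the second tables. Miat-201 took 67.4% ± 1.68 of TPM, and 67.4% in the second tables. Next to it Miat-202 (747 bases) took 19.4% in replicate 1 and 20.6% in replicate 2, from only 262 and 183 counts. In expected counts Miat-201 held 93.4% and 93.6%, since short transcripts weigh more in TPM. The retained-intron transcript Snhg11-204 took 7.72% and 6.90% of TPM.

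For Sox2ot, Rmst, Dlx6os1 and Pantr1 the tables named different leading transcripts. The same transcript led in both mice for 8 of 8 RNAs in the first table, and the second tables named it again for 4 of 8. For Dlx6os1 the first table put Dlx6os1-202 (4446 bases) first at 48.3% ± 3.90 and the second put Dlx6os1-203 (524 bases) first. Dlx6os1-203 rested on 23.7 and 29.2 expected counts. For Sox2ot, Sox2ot-206 led at 31.0% ± 1.69, whereas Sox2ot-217, at 0 counts in the first table, led in the second at 25.6% and 27.3%.

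For Pantr1, Pantr1-212 led at 30.0% ± 3.27 and Pantr1-209 led in the second tables. Pantr1-207 took 24.2% and 20.8% in the second tables and held 0 counts in the first. Pantr1-202 took 19.0% and 19.5% in the first table and 14.8% in replicate 2 of the second, where it held almost nothing in replicate 1. For Rmst, Rmst-201 (407 bases, chr10:92075123-92075629) led at 33.2% ± 2.62 from 40.9 and 32.0 counts, and Rmst-205 led in the second tables. Rmst-209, Rmst-210, Rmst-211 and Rmst-213 share no exonic base with Rmst-201. Of these, Rmst-210 (2891 bases) held the most expected counts of the gene, 84.8 and 91.3. The cause of these differences between the tables was not tested.

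**Figure D4:**
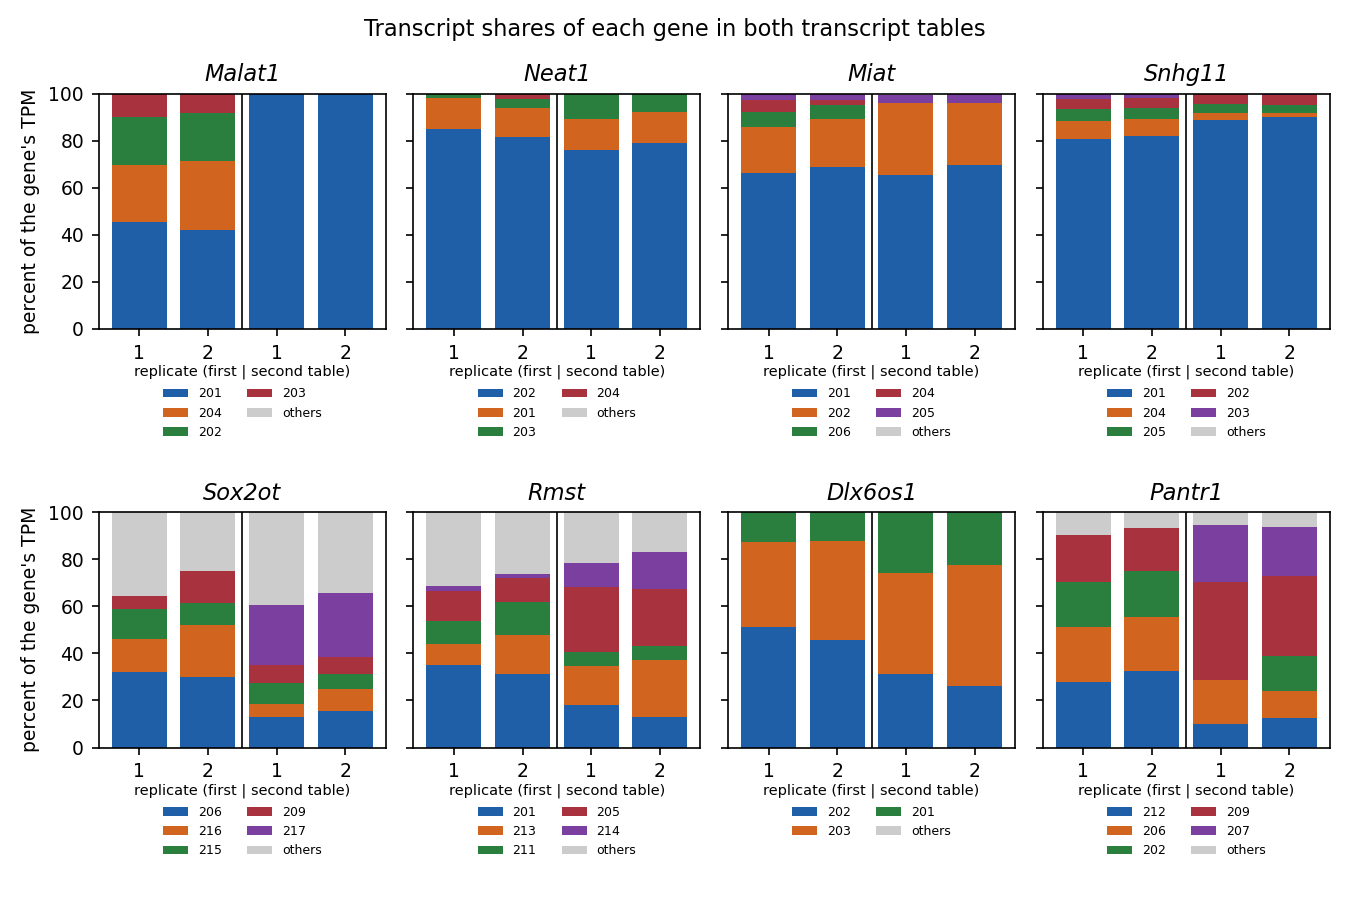
Percent of each gene's TPM held by its transcripts, with up to 5 transcripts of largest share coloured and the rest in grey; in each panel the bars left of the line are replicates 1 and 2 in the first transcript table and those right of it the same mice in the second. In the first table no share moves between the mice by over 8.36 percentage points, while Malat1 changes from 45.3% to 99.8% for transcript 201 in replicate 1 between tables.

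Proteins of the nuclear bodies in which Malat1 and Neat1 are found were also examined, from lists chosen with earlier results known. Of 23 nuclear speckle proteins 18 were lower and 5 higher in replicate 2, with a median log2 ratio of -0.31, beside 0.022 over all 18187 genes averaging 10 counts or more, of which 46.4% were lower. None of the 23 was 1.5-fold lower, beside 8.61% of those genes. All 23 averaged over 100 counts, and at that minimum the share was 1.93% of all genes and 0.726% of protein-coding genes. Srrm2, a core speckle protein, stood at 263 TPM in replicate 1 and 171 TPM in replicate 2, a log2 ratio of -0.41. Srsf5, an SR splicing factor, stood at 151 and 104 TPM, a ratio of -0.34. Luc7l3 and Rbm25 had the largest ratios of the list, at -0.44 each.

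Paraspeckle proteins were closer between the mice. Of 20 members 14 were lower and 6 higher, with a median of -0.13. Over all genes averaging 10 counts or more, 46.4% were lower. Sfpq, which binds Neat1 and is needed for paraspeckles, stood at 109.5 TPM in replicate 1 and 66.1 TPM in replicate 2, a ratio of -0.41 (-0.47 to -0.34). Hnrnpm followed at -0.34. The most abundant members were Hnrnpk, at 264 and 234 TPM with a ratio of 0.12, and Matr3, at 262 and 218 TPM with a ratio of 0.01. TPM is a share of a total that includes 7SL RNA, which took 24.3% of TPM in replicate 1 and 30.1% in replicate 2, so a gene can have a lower TPM beside a ratio above 0.

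Genes listed for the processing and binding of the Malat1 3′ end split evenly, with 8 of 16 lower and 8 higher and a median of 0.011. The list is broader than the proteins that cut or bind this end, and includes Mettl3 at -0.29 and Mettl14 at -0.17. The share lower over all genes averaging 10 counts or more was 46.4%. Pop7 and Rpp25, subunits of RNase P, had the largest ratios, at 0.56 (180 and 304 counts) and 0.41 (181 and 276 counts). Pop5, another subunit, stood at 52.6 and 40.7 TPM with a ratio of -0.01, and Exosc10, of the nuclear exosome, at 19.2 and 17.5 TPM with a ratio of 0.10. Spike-in scaling turned the median of this list to -0.45, by the shift that all genes share.

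Protein partners of Miat, Rmst and Sox2ot numbered 10, of which 6 were lower and 4 higher, with a median of -0.11. Over all genes averaging 10 counts or more, 46.4% were lower. Hnrnpa2b1, a partner of Rmst, stood at 195 and 142 TPM with a ratio of -0.20. Qk, an RNA-binding protein of glia and a partner of Miat, stood at 177 and 146 TPM with a ratio of -0.14. Sox2 had 534 counts in replicate 1 and 801 in replicate 2, a ratio of 0.39 (0.23 to 0.55), above 0 where Sox2ot, which encloses it on the same strand, was below 0. Ezh2 had a ratio of -0.27 (-0.56 to 0.01).

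**Figure D5:**
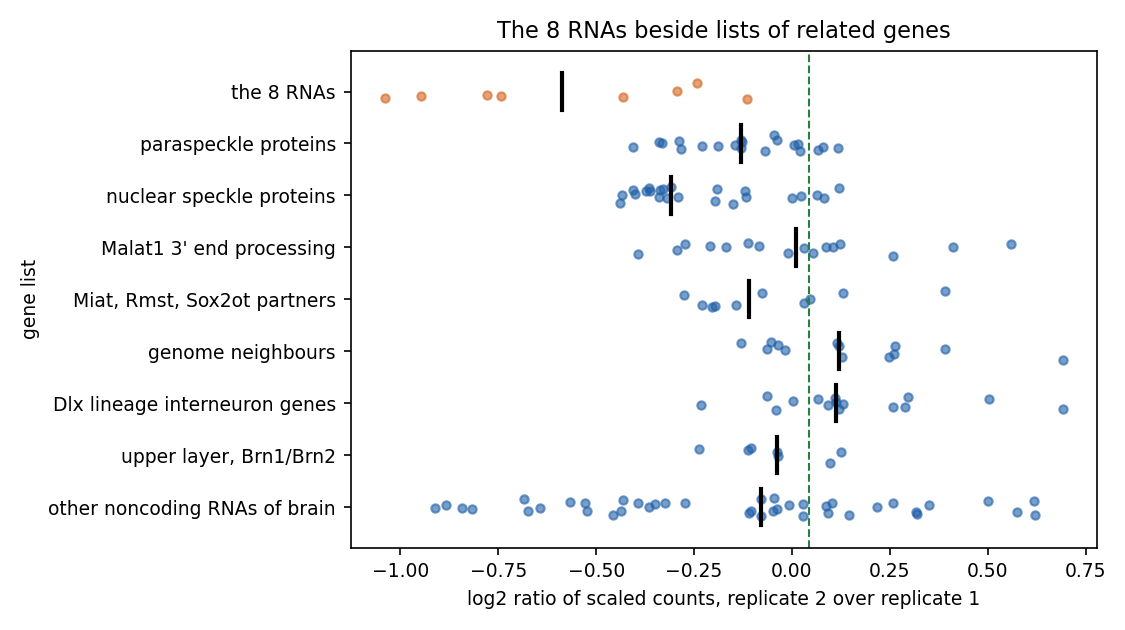
Log2 ratio of scaled counts, replicate 2 over replicate 1, for the 8 RNAs (orange) and for each gene of the related lists averaging 10 counts or more (blue), with black bars at the medians and a dashed line at the median of all genes averaging 100 counts or more. The median of the 8 RNAs is -0.59, that of the nuclear speckle proteins -0.31, and the other lists lie between -0.13 and 0.12.

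Genes listed from the chromosome regions of the 8 RNAs lay on both sides of 0. Of the 14 listed, 10 lie within 50 kb of 1 of the 8 RNAs and the others farther off. Of the 13 averaging 10 counts or more, 5 were lower and 8 higher, where 46.4% of all genes at that minimum were lower. The median of the 13 was 0.12. That median was -0.02 among those averaging 100 counts or more and -0.34 under spike-in scaling. Around Malat1 and Neat1, Frmd8 had a ratio of -0.05 and Ltbp3 -0.06. Ralgapb, 23.7 kb from Snhg11, had -0.02, with 5746 and 6480 counts. Near Miat, Crybb1 had 0.26 and Cryba4 held 7 and 4 counts, while Tpst2, named after its values were seen, held 466 and 726 counts at 0.45 (0.28 to 0.62). The 4 distant genes were Rprd1b (243 kb from Snhg11) at 0.13, Tgfbrap1 (352 kb from Pantr1) at 0.12, Nedd1 (520 kb from Rmst) at 0.26 and Atp11b (1071 kb from Sox2ot) at -0.13.

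Pou3f3, which starts next to Pantr1 on the opposite strand, held 4198 and 4678 counts at a ratio of -0.04 (-0.10 to 0.02), and Pantr2 held 18 and 25 counts. Of the 7 genes of upper layers and of Brn1 and Brn2, 5 were lower and 2 higher. The share lower over all genes averaging 10 counts or more was 46.4%. The median of the 7 was -0.04. That median was 0.005 in the second tables. Cux2 stood at 90.1 and 75.8 TPM with a ratio of 0.13 and Cux1 at 51.6 and 43.6 TPM with -0.04. The ratio of Pou3f3 lay inside the counting interval of Pantr1.

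Dlx6os1 was compared with the Dlx genes it overlaps or adjoins. Dlx6, on the opposite strand within Dlx6os1, held 82 and 102 counts at a ratio of 0.12 (-0.31 to 0.56). Dlx5 held 54 and 101 counts at a ratio of 0.69 (0.22 to 1.22). The strand setting of the counting is not given in the sources used here, so reads of Dlx6 and Dlx6os1 may be mixed. Of the 15 interneuron genes of the Dlx lineage 12 were higher and 3 lower. The share lower over all genes averaging 10 counts or more was 46.4%. The median of the 15 was 0.11 and became -0.35 under spike-in scaling.

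Among them Dlx1 had a ratio of 0.11, Dlx2 0.50 (89 and 145 counts), Sp9 0.11 and Lhx6 0.001. Gad1, the main enzyme of GABA synthesis, stood at 158 and 146 TPM with a ratio of 0.09, Gad2 had 0.07 and Slc32a1, the vesicular GABA transporter, 0.26. Of the subtype markers Sst had 0.30, Npy 0.13, Pvalb -0.04, Vip -0.06 and Adarb2 -0.23. The ratio of Dlx6os1, -0.24, was close to that of Adarb2 and below those of the other listed genes.

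Other noncoding RNAs of brain were mixed. The list is not limited to annotated long noncoding types. It also holds Rn7sk (miscellaneous RNA), Rpph1 (ribozyme) and 6330403K07Rik (protein-coding in the annotation). Of 41 listed genes averaging 10 counts or more, 26 were lower and 15 higher, with a median of -0.08, and 7 were at least 1.5-fold lower against 2 at least 1.5-fold higher. Over all genes averaging 10 counts or more these shares were 8.61% and 3.5%, and 46.4% of those genes were lower. The largest ratios were those of Mir124a-1hg, the host of a neuronal microRNA, at -0.91 (138 and 62.1 TPM), and of the imprinted Kcnq1ot1 at -0.88 (5618 and 3477 counts). Rn7sk and Gm26917 had the highest levels of the list, at ratios of 0.15 and 0.32, which were 1.66 and 0.37 in the second transcript tables. Of 292 other long noncoding genes averaging 100 counts or more, 169 had a ratio within 0.1 of that of at least 1 of the 8 RNAs, over 2 libraries only. The ratios of the 8 are spread over most of the range below 0, so most of the 194 genes below 0 meet this rule by its construction. The 5 most abundant were C230004F18Rik (1013 TPM, -0.26, nearest to Dlx6os1), Meg3 (912 TPM, -0.84, nearest to Snhg11), Snhg14 (769 TPM, -0.37) and Rian (489 TPM, -0.39), both nearest to Sox2ot, and 1700020I14Rik (147 TPM, -0.04, nearest to Pantr1).

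The libraries held 29417200 expected counts in replicate 1 and 35188800 in replicate 2, to the nearest 100. Together the 8 RNAs took 1.41% and 0.710% of them. Spike-ins took 0.349% and 0.461%, and mitochondrial ribosomal RNA 6.15% and 6.35%. Reads were quantified on the reference genome, and any loss of reads from CAST/EiJ alleles was not tested.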

How the data were processed

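Total RNA-seq of 2 mice was used, with group and replicate from the labels. Per the file headers, the authors deposited expected counts and TPM per gene and transcript and the percent of each gene held by each transcript. Their second transcript tables hold, per the file headers, estimated counts and TPM. Per the labels the genome build is mm10, and per the deposited notes the annotation is GENCODE M21. For the aligner, quantifiers and strand setting, the sources used here give nothing. The 8 RNAs and all lists were chosen with earlier results of these data known.

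Expected counts were rounded and scaled by TMM (edgeR 4.0.16, R 4.3.3, prior count 2; DESeq2 1.42.0 for size factors), leaving out rows that name no annotated gene. Minimum mean counts were 100 for ratios and 10 for lists. Intervals are 95% Clopper-Pearson. A transcript share is its percent of the summed TPM of the gene's transcripts. Genes named are the 8, their neighbours, the Dlx lineage, the 2 highest and 2 largest ratios of each list, the 5 most similar noncoding RNAs, and transcripts of at least 5% of a gene; other genes named were chosen after their values were seen. Most listed genes, and some that this rule covers, go unnamed, but all enter the counts and medians of their lists. The ratio step was tested on simulated data. With 1 library per mouse no significance test was run.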

Additional observations from a re-analysis of the deposited data

How the results depend on the processing

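The median log2 ratio of the 8 RNAs was -0.59 and became -1.05 with spike-in scaling and -0.84 with TPM. The number at least 2-fold apart was 1 and became 2 with total counts (Malat1 added), 4 with spike-ins, 4 with TPM and 0 in the second tables. The number at least 1.5-fold apart, a size chosen after the data were seen, was 4 and became 7 with spike-ins and 6 with TPM. Shares of all genes past these sizes were not computed with total counts, spike-ins or TPM. The median of all genes itself was -0.42 with spike-ins and -0.20 with TPM, so the higher counts of members cannot be read alone. The share of all genes at least 2-fold apart was 0.713% and became 4.04% at a mean count of 10 and 8.71% with no filter. The summed level was 4706 TPM, became 8326 TPM when rescaled without mitochondrial genes, 7SL, 7SK and spike-ins, and ran from 3025 to 6387 TPM when 1 mouse was left out. The median share of the leading transcript was 46.0%, became 60.7% in expected counts, and ran from 43.7% to 48.2% with 1 mouse left out. The causes were not tested, except that expected counts are not divided by length. No ratio of the 8 RNAs changed sign. No paired analysis was possible because both libraries form 1 group. Sox2ot, Rmst, Dlx6os1 and Pantr1 rested on 308 to 635 counts per library.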
